A study of Mus musculus with 3 samples.

Results

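The mouse genome holds many genes named Zfp and a number, most of which encode C2H2 zinc finger proteins. On the arrays of this experiment 303 such genes had a probe set with 1 gene symbol, and 75 of them reached 100, in units of signal, on any of the 3 arrays. These 75 genes, chosen by their signals from 6896 genes that passed the same filter, are described here. Zfp36 and Zfp516 were not members. A gene kept only through its 0 h signal had to be lower afterwards, so the values below are a description of kept genes and not of all 303. The expression arm consisted of 3 Affymetrix mouse arrays, at 0, 1 and 2 h of isoproterenol (ISO, 1 μM in a legend of the study), an agonist of all β-adrenergic receptors. All RNA came from iBATs, immortalized brown preadipocytes that were induced with insulin and indomethacin and were on day 8 of differentiation. Each time point has 1 array, so no value has a replicate error, no test was run, and a difference between cultures or arrays cannot be told apart from an effect of ISO.

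C2H2 zinc finger proteins bind DNA, and in some cases RNA, through small domains folded around a zinc ion. A large branch carries a KRAB box, which recruits TRIM28 (KAP1). TRIM28 brings the histone H3 lysine 9 methyltransferase SETDB1, HP1 proteins and histone deacetylases to the bound site, and KRAB zinc finger proteins are best known for silencing retroelements and guarding imprints. Other members are BTB proteins, partners of co-repressors, splicing and ribosome factors or ubiquitin ligases, and a few are known from adipocyte differentiation. β-adrenergic receptors raise cyclic AMP, and the cyclic AMP response element is the DNA site that CREB binds.

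Promoters were looked at because the cyclic AMP response element is a site through which the pathway of ISO is known to act. RefSeq promoters (GRCm38.p6), 250 bases before to 50 after a gene's start, were available for 64 of the 75 genes, with 82 promoters in all. The 8-letter element TGACGTCA was present in 3 of the 82 promoters (3.66%), against 3.28% of 7191 promoters of other kept genes and 1.79% of all 32851 promoters of the table. The 5-letter site TGACG, searched on both strands, was present in 36 of them (43.9%), against 33.9% for other kept genes and 20.8% for all promoters. Each 8-letter element holds the 5-letter site on both strands and counts for both. The median GC content was 58.7% in the promoters of the 75 genes and 61.7% in those of other kept genes. A match is a description of letters in this window and not a site of binding. Distal enhancers, at which the study found JMJD1A, SWI/SNF subunits and PPARγ, lie outside the window and were not searched.

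The promoter of Zfp655, the 1 gene past the threshold for a rise at 2 h, and that of Zfp946, the gene with the lowest ratio at 2 h, are shown to set the 2 ends of the class side by side. Zfp655 lies on the + strand at chr5:145231492-145231791 and Zfp946 on the + strand at chr17:22423952-22424251. Capitals mark the 5-letter site on either strand, of which Zfp655 had 3 and Zfp946 had 0.
Zfp655: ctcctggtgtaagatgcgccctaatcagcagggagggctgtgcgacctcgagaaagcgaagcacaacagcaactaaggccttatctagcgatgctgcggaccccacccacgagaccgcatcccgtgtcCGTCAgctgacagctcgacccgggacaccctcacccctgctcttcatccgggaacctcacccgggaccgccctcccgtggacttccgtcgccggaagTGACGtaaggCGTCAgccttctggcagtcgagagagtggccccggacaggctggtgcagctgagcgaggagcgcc
Zfp946: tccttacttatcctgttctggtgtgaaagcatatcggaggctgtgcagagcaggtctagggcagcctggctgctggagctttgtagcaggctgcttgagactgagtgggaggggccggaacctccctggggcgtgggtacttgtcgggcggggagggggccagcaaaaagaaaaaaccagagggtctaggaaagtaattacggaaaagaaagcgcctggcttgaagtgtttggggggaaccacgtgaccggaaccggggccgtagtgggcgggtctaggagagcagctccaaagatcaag

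The 8-letter element was found in Zfp266, Zfp367 and Zfp523, for which 40 bases are shown with the element in capitals. These lie at chr9:20521413-20521452 on the - strand for Zfp266, at chr13:64152455-64152494 on the - strand for Zfp367, and at chr17:28177118-28177157 on the + strand for Zfp523. The element began at -17, -105 and -62 from the start of the gene, in that order.
Zfp266: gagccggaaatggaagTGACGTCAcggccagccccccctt
Zfp367: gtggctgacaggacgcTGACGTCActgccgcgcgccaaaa
Zfp523: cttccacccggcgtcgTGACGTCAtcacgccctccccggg

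None of the 3 genes with the full element was higher at 1 h, when 55.6% of all kept genes were below 0 h. Zfp523, related to the transcription factor ZNF143 in humans, had signals of 105.7, 74.0 and 77.4 at 0, 1 and 2 h (log2 ratios of -0.51 and -0.45). Zfp523 reached 100 at 0 h only, so the filter set its direction at both times. Zfp266 had 186.3, 165.9 and 198.4, and Zfp367 had 349.8, 340.0 and 377.5 at 0, 1 and 2 h. The 33 genes with the 5-letter site had median log2 ratios of -0.07 and -0.08 at 1 and 2 h, against -0.13 and -0.08 for the 31 genes without it. Among the genes with the 5 highest or 5 lowest ratios at either time, Zfp458, Zfp760, Zfp946, Zfp503 and Zfp62 had no 5-letter site in this window. Zfp655, Zfp131, Zfp948, Zfp511, Zfp830, Zfp617, Zfp523, Zfp771 and Zfp101 had at least 1. Each group thus holds genes with high and genes with low ratios.

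The kept genes were dim. Signals are MAS5 values, a linear intensity per probe set on which the 3 arrays share 1 trimmed mean. The median of the mean signal over 3 arrays was 163.3 for the 75 genes and 280.3 for the 6821 other kept genes, and none of the 75 was in the brightest of 10 classes of mean signal. Of the 75, 59 (78.7%) reached 100 on all 3 arrays, against 89.5% of the other kept genes. Another 7 (9.33%, against 2.86%) reached it at 0 h only, namely Zfp251, Zfp35, Zfp458, Zfp523, Zfp597, Zfp758 and Zfp760. Zfp511 reached it at 1 h only and Zfp62 at 2 h only. Just inside the filter were Zfp511 (highest signal 103.2), Zfp523 (105.7) and Zfp35 (107.2), and just outside were Zfp9 (97.8), Zfp180 (97.6) and Zfp414 (96.8). The 228 genes below it had a median highest signal of 28.6, and 168 of them stayed below 50.

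The ratios of the 75 genes were small and, as deposited, leaned to lower values at 1 h, with a median of -0.00 in place of -0.11 when the arrays are scaled to the same median. The log2 ratio at 1 h over 0 h had that median of -0.11 with a spread of 0.18 (the median absolute deviation, scaled so that it equals an SD for normal values), and ran from -0.95 to 0.59. The other kept genes had a median of -0.02 and a spread of 0.16. The signal was below that at 0 h for 54 of the 75 (72%), beside a background of 55.6% over all kept genes. Scaling the arrays to the same median moves the median of all kept genes at 1 h to 0.08, against -0.02 as deposited, and the share of numbered Zfp genes below 0 h to 50%, beside 31.4% of other genes. The order of the 2 sets is the same under both scalings, while the sign of a small ratio at 1 h is not.

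At 2 h the ratios ran further to both sides than at 1 h. The median log2 ratio was -0.08, with a spread of 0.32 and a range from -0.99 to 1.08, against a median of -0.07 and a spread of 0.23 for other kept genes. The signal was below that at 0 h for 51 of the 75 (68%), beside a background of 61.4%. With quantile normalization of the arrays the share was 60.5%, against 59.6% of other genes. With cyclic loess it was 58.7%, against 56.5%, and with the same median 61.8%, against 58.1%. The medians were -0.04 (quantile) and -0.03 (loess), against -0.06 and -0.04 for other genes, so their order at 2 h depends on the scaling. Ratios within 0.2 of 0 were found for 45 of the 75 at 1 h (60%) and for 35 at 2 h (46.7%), against 73.8% and 56.7% of the other kept genes. Both comparisons share the 0 h array, so a low or high value there moves both.

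**Figure D1:**
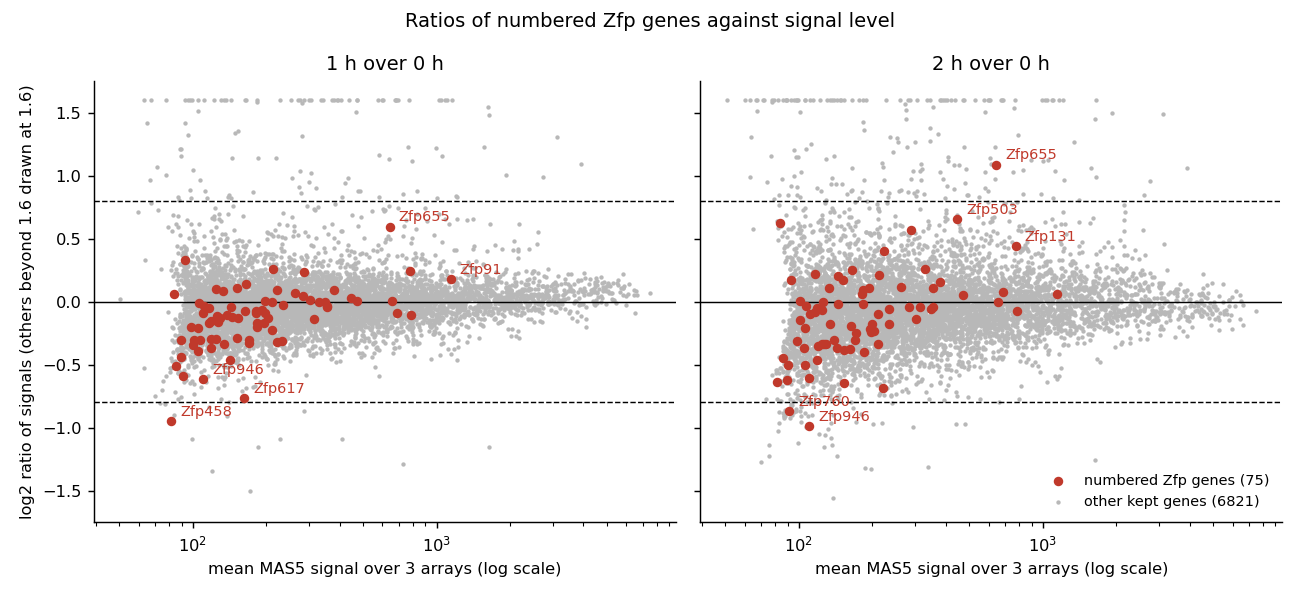
Each point is a gene, with the mean MAS5 signal over 3 arrays on a log axis and the log2 ratio to 0 h on the vertical axis, at 1 h (left) and 2 h (right); red points are the 75 numbered Zfp genes, grey points the 6821 other kept genes, and dashed lines lie at 0.8 and -0.8. The red points lie mostly at mean signals below 220 and within the cloud of other genes, and Zfp655 stands at 1.08 at 2 h.

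Set against genes of similar level, the spread of the class was close to that of other genes. Within the 10 classes of mean signal, the spread of the 75 genes was 0.918 times that of other kept genes at 1 h and 1.07 times at 2 h. Other kept genes, weighted to the same classes, had a spread of 0.20 at 1 h and 0.28 at 2 h. Their share below 0 h was 60.3% at 1 h and 64.3% at 2 h. Measured from the median of its own class, the median numbered Zfp gene lay at -0.05 at 1 h and 0.01 at 2 h, and 45 (60%) and 36 (48%) were below their class median.

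Few genes stood far out in their class. At 1 h, 1 gene (Zfp655) lay at least 2 class spreads higher and 3 (Zfp458, Zfp617 and Zfp318) lay at least 2 lower, beside a background of 5.8% higher and 3.25% lower among all kept genes. At 2 h, 5 genes lay higher (Zfp655, Zfp503, Zfp948, Zfp131 and Zfp62) and 2 lower (Zfp771 and Zfp946), beside 7.25% and 2.6%. These counts are shares of 1.33% and 4% at 1 h, and of 6.67% and 2.67% at 2 h. The share that stood higher at 1 h was thus below the background, and the others were near it. Zfp62 reached 100 at 2 h only and Zfp458 at 0 h only, so the filter set the direction of both. Zfp946 missed it at 2 h only and so had to be lower then.

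As deposited, the lower values lay among the dim genes. Of the 53 numbered Zfp genes in the 4 dimmest classes, 84.9% were below 0 h at 1 h and 77.4% at 2 h, against 61.7% and 66.5% of other kept genes in those classes. Their median log2 ratios were -0.16 and -0.22, against -0.07 and -0.13 for other kept genes. Part of these shares was set by the filter. Among the 53, 7 reached 100 at 0 h only and had to be lower at both times. These 7 are 9.33% of kept numbered Zfp genes, against 2.86% of others. Another 3 (4%, against 0.982%) missed it at 1 h only and had to be lower then. A further 4 (5.33%, against 2.65%) missed it at 2 h only and had to be lower then. The difference without such genes was not tested within these classes. Of the 22 genes in brighter classes, 40.9% were below 0 h at 1 h and 45.5% at 2 h, against 51.3% and 58.0%. Their medians were 0.01 and 0.06, against -0.00 and -0.04. The 59 genes that reached 100 on all 3 arrays are not limited to the dim classes. Of these 59, 67.8% were below 0 h at 1 h and 64.4% at 2 h, against 54.9% and 61.0% of other genes kept by that rule.

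A view that does not use the filter gives the direction for all 303 genes, and its split into bands of signal was chosen after seeing the data. With every gene of 1 symbol, 220 of 303 (72.6%) were below 0 h at 1 h and 204 (67.3%) at 2 h, against 54.7% and 55.9% of 17891 other genes. Their medians were -0.20 at both times, against -0.04 and -0.07. At mean signals of 20 to 50 the share was 84.1% of 88 genes at 1 h, against 65.4%, and 80.7% at 2 h, against 66.5%. At 100 or more it was 71.6% of 67 genes at 1 h, against 55.2%, and 67.2% at 2 h, against 61.1%. In the band of 50 to 100 it was 61.8% of 55 genes at 2 h, against 66.9%. Under 20 the spread at 1 h was 0.78 for the numbered Zfp genes and 1.20 for other genes, several times that of the kept genes.

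**Figure D2:**
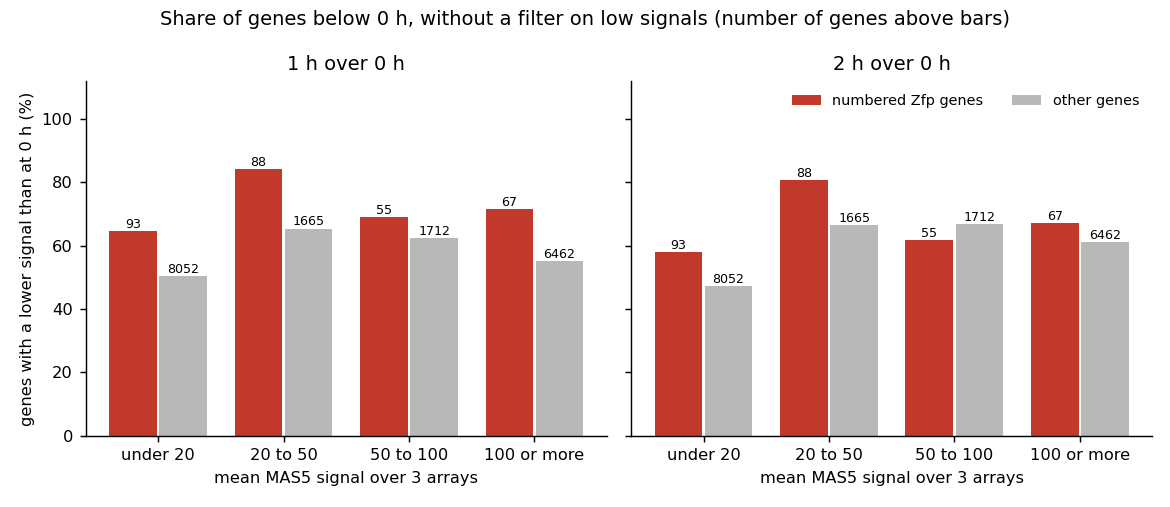
Bars give the percent of genes whose signal was below that at 0 h, at 1 h (left) and 2 h (right), in 4 bands of mean MAS5 signal with no filter; red bars are numbered Zfp genes, grey bars other genes, and the number of genes stands above each bar. At 1 h the red bar is higher in all 4 bands, and at 2 h in 3 of 4.

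A log2 ratio of 0.8 (1.74-fold), the size by which the study picked rises at 1 h, was used here for falls and for 2 h as well, and 4 of the 75 genes passed it. At 1 h 0 were higher and 1 was lower (Zfp458), beside a background of 1.58% higher and 0.218% lower among all kept genes. At 2 h 1 was higher (Zfp655) and 2 were lower (Zfp946 and Zfp760), beside 2.73% and 0.812%. Between 2 h and 1 h 0 were higher and 0 lower, beside 0.667% and 0.319%. With 75 genes, 1 gene more or less moves such a share by 1.33 points.

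Zfp655 had the highest ratio at both times. Its signals were 416.4, 628.6 and 883.3 at 0, 1 and 2 h, and the log2 ratios to 0 h were 0.59 and 1.08. A second kept probe set had 68.8, 80.5 and 115.8 (0.23 and 0.75), so that both were higher at each later time. The human counterpart, ZNF655, is known as a zinc finger protein that binds the signalling protein VAV1. The log2 ratio at 2 h stayed between 0.92 and 1.11 under every alternative filter, scaling and probe set choice that was run.

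Other genes with high ratios did not reach the threshold. Zfp503 (NOLZ1), a co-repressor of the NET family known from striatal and limb development, had signals of 371.3, 379.7 and 583.8 at 0, 1 and 2 h. Its log2 ratios were 0.03 and 0.65, and a second probe set gave 0.23 and 0.31. Zfp703, of the same family, had 142.0, 153.1 and 159.8, a difference of 0.17 at 2 h. The 2 probe sets of Zfp503 thus differ in how much of the difference was present at 1 h.

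Zfp948 had signals of 235.5, 277.6 and 348.7 at 0, 1 and 2 h, with log2 ratios of 0.24 and 0.57. Zfp131, a BTB zinc finger protein that acts as a transcriptional regulator, had 657.3, 776.3 and 892.4, with 0.24 and 0.44. Zfp62 had 70.1, 73.1 and 108.0, and its ratio of 0.62 at 2 h starts from 2 arrays below the filter. At 1 h the next high ratios were those of Zfp511 (82.3, 103.2 and 92.8 at 0, 1 and 2 h, with 0.33 at 1 h) and Zfp830 (190.8, 228.2 and 220.3, with 0.26). Zfp655, Zfp948 and Zfp131 thus were higher at each step, whereas Zfp511 and Zfp830 were highest at 1 h.

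At the other end, Zfp458, a KRAB zinc finger gene also known as a regulator of sex-limitation candidate, had signals of 113.1, 58.5 and 72.5 at 0, 1 and 2 h. The log2 ratios were -0.95 and -0.64. Zfp946 had 153.5, 100 and 77.3 at 0, 1 and 2 h, with -0.62 and -0.99. Zfp760 had 123.8, 82.3 and 67.8, with -0.59 and -0.87. In these 3 genes the later signals lie at or below the filter, and only 1 probe set was kept for each. When signals below 100 were set to 100, the called ratios were -0.18 for Zfp458 at 1 h, -0.62 for Zfp946 at 2 h and -0.31 for Zfp760 at 2 h, none of them past the threshold.

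The remaining low ratios were below the threshold. Zfp617 had signals of 206.4, 121.2 and 159.0 at 0, 1 and 2 h, with log2 ratios of -0.77 and -0.38, and its other probe set had -0.43 and -0.33. Zfp771 had 273.1, 218.7 and 170.2 (-0.32 and -0.68), and Zfp101 had 186.2, 152.5 and 118.8 (-0.29 and -0.65). Both were lower at each step while staying above the filter on all 3 arrays. Zfp617, like Zfp458, was lowest at 1 h and higher again at 2 h.

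**Figure D3:**
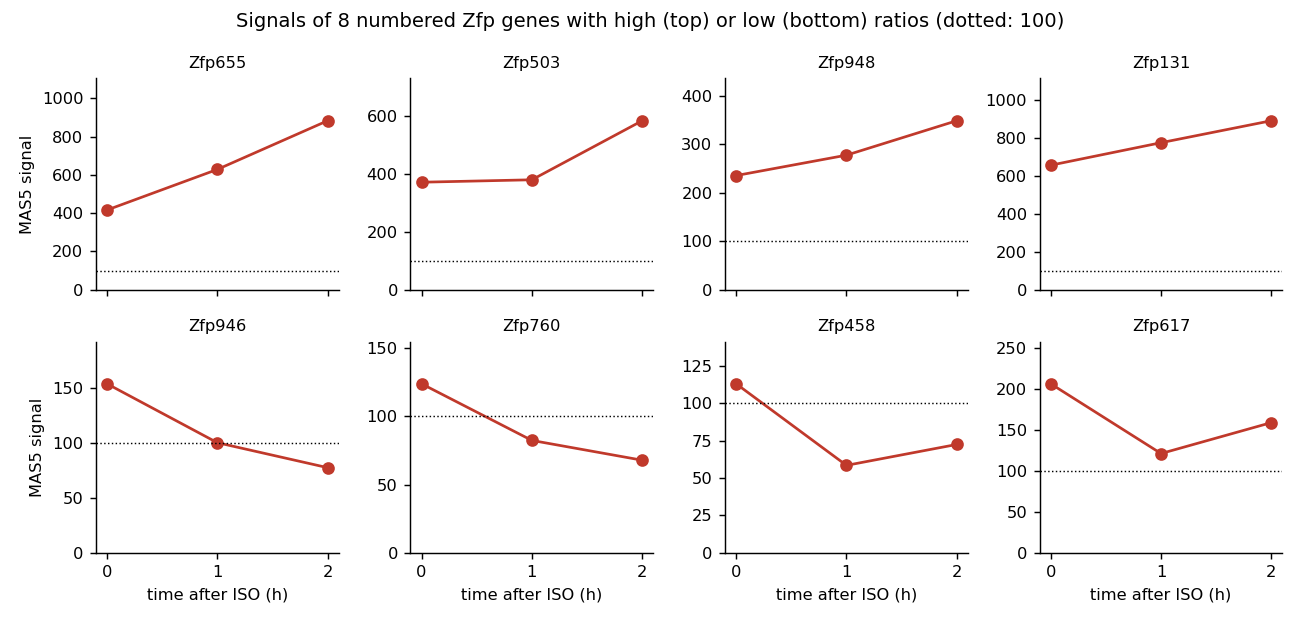
MAS5 signal (vertical axis, from 0) against hours of ISO for 4 genes with high ratios (top) and 4 with low ratios (bottom), 1 array per point, with a dotted line at the filter of 100. Zfp655 is highest at 2 h, with 883.3, and of the lower row only Zfp617 stays above 100 on all 3 arrays.

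In order of step, 29 of the 75 genes (38.7%) were lower at 1 h and lower again at 2 h, against 32.9% of the other kept genes. Lower and then higher were 25 (33.3%, against 22.4%), and higher at both steps were 12 (16%, against 17.96%). Higher and then lower were 8 (10.7%, against 26.5%), and Zfp644 was equal at 0 and 1 h. Between 1 h and 2 h the median log2 ratio was 0.01 with a spread of 0.23, against -0.05 and 0.18. A course of lower and then higher uses the 1 h array in both steps, so a low value there gives it. The other kept genes were brighter (median signal 280.3, against 163.3), and these shares were not matched by level. The sign of a small first step also depends on the scaling of the arrays. The 7 genes that reached 100 at 0 h only had to be lower at the first step. The 3 that missed it at 1 h only had to be lower and then higher.

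**Figure D4:**
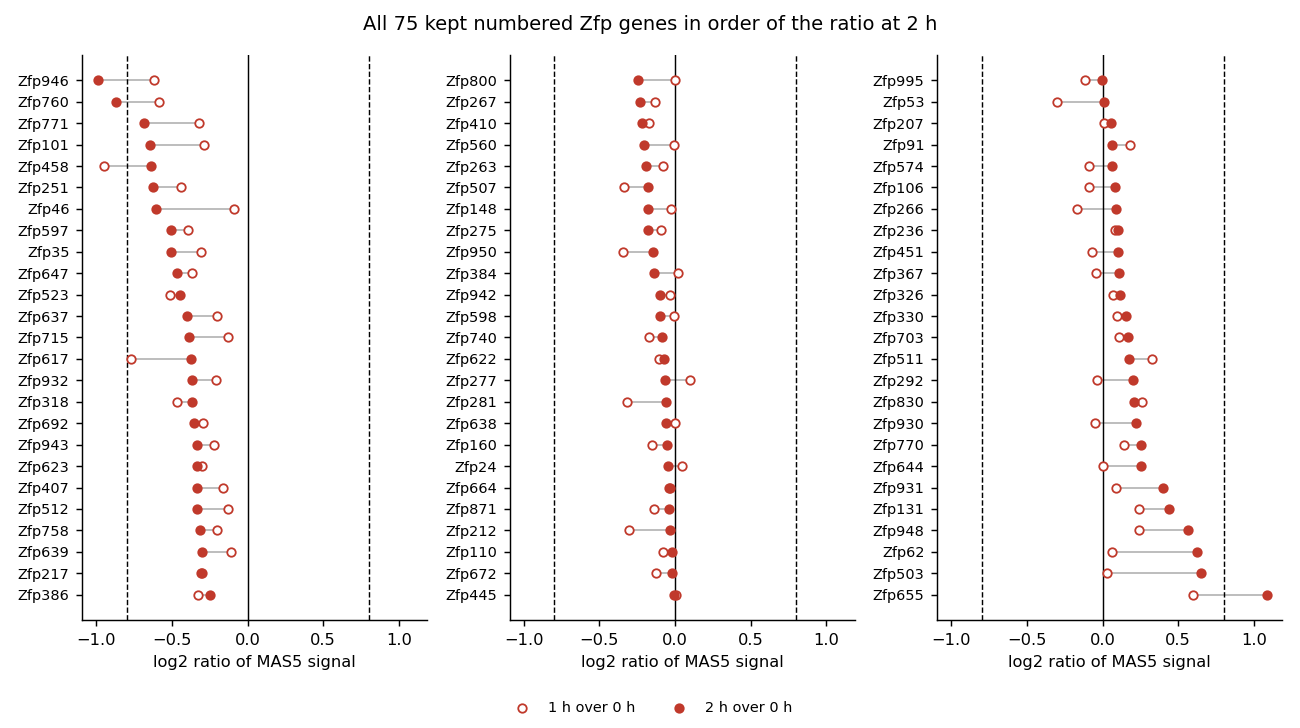
The log2 ratio of MAS5 signal to 0 h for each of the 75 genes, ordered by the value at 2 h, with open circles at 1 h and filled circles at 2 h; dashed lines lie at 0.8 and -0.8. Filled circles run from -0.99 (Zfp946) to 1.08 (Zfp655), and only 4 genes have a circle past a dashed line.

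Of the 5 brightest genes, Zfp131 is described above, and the brightest probe sets of the other 4 were nearly level. Zfp91, a ubiquitin ligase of the NF-κB pathway, had signals of 1080.8, 1222.7 and 1128.0 at 0, 1 and 2 h (log2 ratios of 0.18 and 0.06). Zfp622, a factor of late ribosome subunit maturation in its yeast counterpart, had 817.5, 759.9 and 775.6, but its second probe set had 0.55 at 1 h and 0.34 at 2 h. Zfp445, which acts with Zfp57 to keep imprints in mice, had 655.3, 659.0 and 652.7, and its second, dimmer probe set had -0.15 and -0.18. Zfp106, an RNA-binding protein needed by motor neurons, had 687.9, 646.3 and 727.0.

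By role, 3 of 8 zinc finger genes listed for adipocyte differentiation were kept, and none of the 3 passed the threshold. Among all kept genes, 1.58% and 2.73% passed it for a rise at 1 and 2 h, and 0.218% and 0.812% for a fall. Zfp638, an RNA-binding partner of C/EBP factors in adipogenesis, had 352.3, 351.9 and 338.2 at 0, 1 and 2 h. Zfp407, known to act on PPARγ target genes in adipocytes, had 141.4, 126.6 and 112.2 (-0.16 and -0.33). Zfp217, a partner of CtBP co-repressors, had 195.3, 157.7 and 158.5 (-0.31 and -0.30). The regulators of preadipocyte fate Zfp423 and Zfp521 stayed below the filter, with highest signals of 69.2 and 89.4, and so did Zfp467 (80.7), Zfp395 (15.3) and Zfp30 (42.1).

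Of 7 KRAB zinc finger genes listed for imprints and retroelements, Zfp445 and Zfp932 were kept. Zfp932, which represses endogenous retroviruses in mouse embryonic stem cells, had 119.3, 103.4 and 92.5 at 0, 1 and 2 h (-0.21 and -0.37). The highest signals of the others were 5.8 for Zfp57, 47.5 for Zfp568, 76.5 for Zfp809, 9.6 for Zfp708 and 1.2 for Zfp819. Most of this list was therefore not measured above the filter.

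Of 14 genes listed for RNA, ribosome and spindle functions, 10 were kept, with medians of 0.00 at 1 h and -0.00 at 2 h. At each time 5 of the 10 were below 0 h, beside 55.6% at 1 h and 61.4% at 2 h among all kept genes. Zfp318, known for controlling the alternative processing of immunoglobulin transcripts in B cells, had the lowest ratios, with 171.4, 124.1 and 132.9 at 0, 1 and 2 h (-0.47 and -0.37). Its second probe set had 0.23 at 1 h, so the 2 probe sets differ in sign there. Zfp598, which marks collided ribosomes, had 216.3, 215.3 and 201.9. Zfp207 (BuGZ), a spindle checkpoint protein, had 464.8, 467.4 and 483.1, and its 3 probe sets ran from -0.35 to 0.01 at 1 h and from -0.56 to 0.06 at 2 h. Zfp326, Zfp330 and Zfp277 had ratios between -0.07 and 0.16.

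Of 18 measured genes listed as general transcription factors or partners of chromatin enzymes, 8 were kept, with medians of 0.01 at 1 h and -0.05 at 2 h. Zfp281, a factor known from embryonic stem cells, had 253.1, 203.4 and 242.9 at 0, 1 and 2 h (-0.32 and -0.06), and its second probe set had -0.40 and 0.39. Both probe sets of Zfp281 were thus lower at 1 h and differed in sign at 2 h. Zfp644, a partner of the methyltransferases EHMT1 and EHMT2, had 308.9, 308.9 and 368.8 (0.00 and 0.26) by a probe set marked for shared sequence, and 212.9, 192.7 and 187.3 (-0.14 and -0.18) by its other one. Zfp148 had 245.4, 240.5 and 216.8, and its 5 probe sets ran from -0.18 to 0.43 at 2 h. Zfp384 and Zfp24 had ratios between -0.14 and 0.04. None of the list passed the threshold, beside 1.58% and 2.73% of all kept genes for a rise at 1 and 2 h. For a fall these shares were 0.218% and 0.812%.

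The partners of KRAB proteins were measured on the same arrays. Of 23 genes of the silencing machinery with a probe set, 20 were kept, with median log2 ratios of -0.10 at 1 h and -0.08 at 2 h. None passed the threshold, beside 1.58% and 2.73% of all kept genes for a rise at 1 and 2 h, and 0.218% and 0.812% for a fall. Below 0 h were 15 of the 20 at 1 h and 13 at 2 h, beside 55.6% and 61.4% of all kept genes. Trim28, the common co-repressor, had 613.7, 577.5 and 528.3 at 0, 1 and 2 h, and Setdb1 had 107.7, 123.1 and 93.4. The lowest ratio was that of Atf7ip, which stabilizes SETDB1 (130.1, 95.4 and 89.6, with -0.54 at 2 h). Next at 2 h was Cbx5, an HP1 protein (464.3, 405.9 and 328.1, with -0.50 at 2 h). Atf7ip reached the filter at 0 h only and so had to be lower at both later times. Setdb1 missed the filter at 2 h only and so had to be lower then. The counts below 0 h are therefore partly set by the filter.

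Of the partners of the chromatin-linked members, 7 of 9 were kept and 0 passed the threshold. Among all kept genes, 1.58% and 2.73% passed it for a rise at 1 and 2 h, and 0.218% and 0.812% for a fall. The 2 methyltransferases that Zfp644 binds were lower at 2 h, with 368.0, 340.3 and 286.6 at 0, 1 and 2 h for Ehmt1 and 246.7, 202.4 and 186.1 for Ehmt2 (log2 ratios of -0.36 and -0.41 at 2 h). The kept H3K9 demethylases, which act on different methylation states of that residue, had a median of 0.15 at 2 h (log2). At 2 h 3 of the 7 were below 0 h, beside 61.4% of all kept genes. Kdm3a was past the threshold, with 421.6, 528.7 and 788.3 (0.33 and 0.90), beside 2.73% of all kept genes at 2 h. Kdm7a, Kdm4c and Jmjd1c had 0.43, 0.17 and 0.15 at 2 h, and Kdm3b, Phf2 and Phf8 had -0.12, -0.04 and -0.00. Kdm4c reached the filter at 2 h only and so had to be higher then. Kdm3a encodes JMJD1A, the protein the study is about.

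Kept members that lie near each other on a chromosome could be compared, since KRAB genes arose as clusters by duplication. In the RefSeq order, 23 of the 75 genes lay in 8 runs with at most 9 protein-coding genes between neighbours. The longest, on chromosome 17, held 9 of them within 26 protein-coding genes, 19 of which are numbered Zfp genes. In this run 8 of 9 were below 0 h at 1 h and 7 at 2 h, with medians of -0.20 and -0.10, beside 55.6% and 61.4% below 0 h among all kept genes. Zfp758 and Zfp760 reached 100 at 0 h only and so had to be lower at both later times. Zfp53 at 1 h and Zfp946 at 2 h were below the filter after reaching it at 0 h. The counts of the run are therefore partly set by the filter. Of the 9, 8 lie in the 4 dimmest classes of signal, in which 61.7% and 66.5% of other kept genes were below 0 h. Zfp946 and Zfp760, both past the threshold, are part of it, and so is Zfp948, which was the only one of the run that was higher at both times. Neighbours in the run thus had ratios from -0.99 to 0.57 at 2 h. Each of the other 7 runs was a pair. The lowest medians were those of Zfp251 and Zfp647 on chromosome 15 (-0.40 at 1 h and -0.55 at 2 h), and the highest those of Zfp326 and Zfp644 on chromosome 5 (0.03 and 0.19). Zfp251 reached 100 at 0 h only and so had to be lower at both later times. The runs were set by gene order only. Whether neighbours are related in sequence, and cross-hybridization between them, were not tested.

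**Figure D5:**
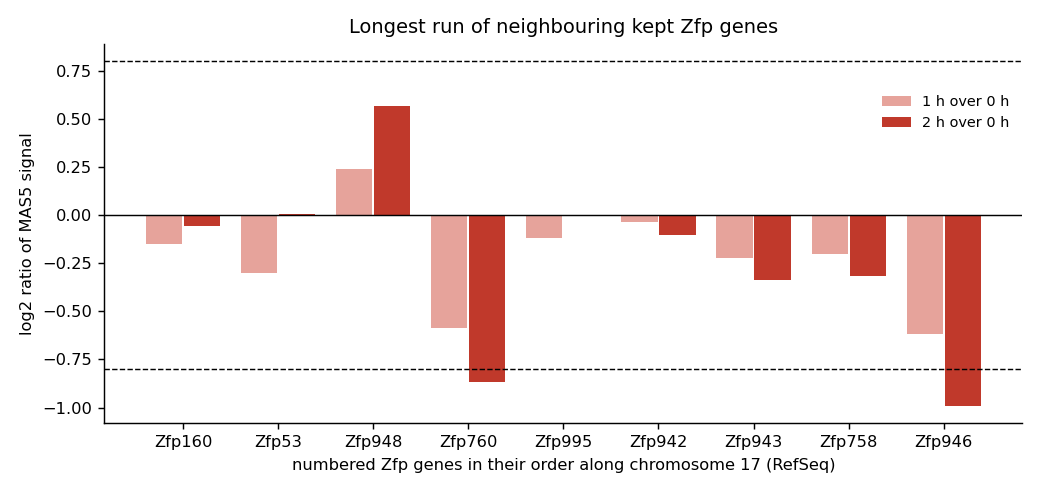
Bars give the log2 ratio of MAS5 signal to 0 h at 1 h (light) and 2 h (dark) for the 9 neighbouring genes on chromosome 17, in RefSeq order; dashed lines lie at 0.8 and -0.8. Only Zfp948 is higher at both times, and Zfp760 and Zfp946 pass the lower line at 2 h.

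The agreement of probe sets bounds what a ratio of single genes can bear. Of the 75 genes, 57 had 1 kept probe set and 18 had 2 or more. All kept probe sets had the same sign in 9 of the 18 at 1 h and in 10 at 2 h, and their range had a median of 0.18 at 1 h and 0.28 at 2 h. These ranges are about as large as the spread between genes. Zfp800 was the 1 gene whose 4 probe sets differed by over 0.8, from -0.40 to 0.42 at 1 h and from -0.24 to 0.96 at 2 h. For 13 of the 75 the probe set used has a suffix for shared sequence.

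Other families of zinc finger genes are given for comparison, with no test. Of the Zfp genes with a letter after the number, 8 of 28 were kept, with medians of -0.10 at 1 h and -0.11 at 2 h. At each time 62.5% of these were below 0 h, beside 55.6% and 61.4% of all kept genes. Of the Zscan and Zkscan genes, SCAN domain relatives, 6 of 20 were kept, with medians of -0.35 and -0.47. All 6 were, as deposited, below 0 h at both times, beside the same background. Of the Zbtb genes, the BTB family, 17 of 39 were kept, with medians of 0.02 and -0.08. Of the Klf genes, Krüppel-like factors, 10 of 16 were kept, with 2 past the threshold for a rise at each time and 1 for a fall at 2 h. Among all kept genes, 1.58% and 2.73% passed it for a rise at 1 and 2 h, and 0.812% for a fall at 2 h. The Zc3h genes, with CCCH fingers, had 7 of 17 kept and medians of -0.06 and -0.18.

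The cells had the signals of adipocytes. At 0 h Fabp4 had 7490.0 and Adipoq 4986.4, and all 8 measured adipocyte markers were kept. None of 8 macrophage, 8 endothelial and 8 muscle markers reached 100. The 8 kept markers of preadipocytes and fibroblasts summed to 10891.7, 10951.6 and 9918.3 at 0, 1 and 2 h, a sum made up mostly of Col1a2 and Col3a1. None was past the threshold, beside 1.58% and 2.73% of all kept genes for a rise at 1 and 2 h. For a fall these shares were 0.218% and 0.812%. Of the 8, 5 were below 0 h at 1 h and 6 at 2 h, beside 55.6% and 61.4% of all kept genes. The lowest log2 ratios at 2 h were those of Lum (-0.60), Pdgfrb (-0.45) and Dcn (-0.45). Lum, with signals of 108.5, 92.6 and 71.8 at 0, 1 and 2 h, reached 100 at 0 h only. Col1a1 (0.18) and Dlk1 (0.14) were higher at 2 h, and Pdgfra was level (-0.00). The lower values of these markers occur beside the lower ratios above, and their part in them was not tested. Fewer cells of a type and less RNA per cell cannot be told apart in such bulk samples.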

How the data were processed

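RNA of 3 samples, 1 per time point, was hybridized to Affymetrix mouse arrays. The authors computed MAS5 signals, and the deposited values are 1 linear intensity per probe set and array. A filter on low values, which the study's methods describe, is not applied in the table. Per the labels, nothing says whether the samples came from separate cultures.

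Of 45101 probe sets, 34958 had 1 gene symbol in the array annotation, 932 had several and 9211 were unnamed here. A probe set was kept where any array had a signal of 100 or above, and each gene was represented by its brightest kept probe set. Values listed at 0 were given 0.1 before log2. Symbols of the 75 genes all matched RefSeq by identifier. Ratios on the log2 scale came from Python 3.11.15 (numpy 2.4.6, pandas 2.3.3) without further scaling. Figures were drawn with matplotlib 3.10.9. The number of arrays limits the precision, and no p-value was computed. All columns of values were used, and the calculation was tested on simulated data.

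The genes and lists were chosen with earlier results of these data known. Named were genes past the threshold, the 5 highest and 5 lowest ratios at each time, the 5 brightest, kept genes of 4 role lists, partners past the threshold and genes whose probe sets differ by over 0.8. Genes named only for the filter, promoters, neighbours or family, or as list members below the threshold, were chosen after their values were seen. Alternatives were other filters, floors, scalings (including cyclic loess, limma 3.58.1, R 4.3.3), probe sets, thresholds and classes. Protein features of the genes were planned and are not analysed here.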

Additional observations from a re-analysis of the deposited data

How the results depend on the processing

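Counts past the threshold rest on dim genes. The count lower at 1 h was 1, and the count lower at 2 h was 2; both were 0 when all 3 arrays had to reach 100, when 1 or more had to reach 200, with signals below 100 set to 100, with 32 added to each signal and at a threshold of 2-fold. The count lower at 2 h was 1 with cyclic loess, under which Zfp760 had -0.78. With no filter, 9 of 303 genes were higher (2.97%, against 11.99% of all genes) and 32 lower (10.6%, against 12.03%) at 1 h. At 2 h 9 were higher (2.97%, against 13.2%) and 40 lower (13.2%, against 11.9%). The median at 2 h was then -0.20, and the spread at 1 h was 0.365 (log2). With a filter of 200 on 1 or more arrays, 32 genes were in the class, with a median of -0.0042 at 1 h and 53.1% below 0 h. With the arrays scaled to the same median, the median at 1 h was -0.0012 and 50% were below 0 h. The spread over that of other genes of similar level lay between 0.783 and 1.10 at 1 h and between 0.722 and 1.15 at 2 h over all alternatives. No called value changed sign, and the cause of these changes was not tested. No paired analysis was possible because each time point has 1 array. With no detection calls in the values used here, how far a dim signal stood above background is unknown.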
